A study of Mus musculus with 12 samples.

Results

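De novo lipogenesis is the making of fatty acids from the carbon of sugar, and 10 genes of it were followed in mouse skeletal muscle: the enzymes Acly, Acaca, Fasn, Elovl6, Elovl5, Scd1 and Scd2, the lipogenic protein Thrsp, and the transcription factors Srebf1 and Mlxipl. Every probe set of the array whose only gene symbol was one of these names was taken, which gave 24 of 45098 probe sets, for 10 of 18193 genes. Acly had 6 probe sets, Scd2, Elovl6 and Thrsp had 3 each, Acaca, Scd1 and Elovl5 had 2 each, and Fasn, Srebf1 and Mlxipl had 1 each. RNA of C57Bl/6 mice was hybridised to 12 Affymetrix arrays, which report the abundance of a transcript as the brightness of a set of short probes. Of these arrays, 4 came from mice that had eaten a high-fat diet (HFD), in which fat made up 46% of calories, over 5 days, and 4 from mice on that diet over 42 days. The other 4 came from mice kept on standard chow, with 13% of calories from fat, which served as the control at both times. All mice ate chow until 6 weeks of age, were group housed and carried no genetic change that the labels name. The labels give neither the muscle sampled nor how old the chow mice were when sampled, and do not say whether the 4 arrays of a group came from separate animals, so the p-values measure the spread between these arrays only.

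In lipogenesis, ATP citrate lyase (Acly) splits citrate exported from mitochondria into acetyl-CoA, acetyl-CoA carboxylase (Acaca) turns that into malonyl-CoA, and fatty acid synthase (Fasn) joins malonyl units into palmitate with NADPH as the reductant. Elongases (Elovl6, Elovl5) lengthen the product and stearoyl-CoA desaturases (Scd1, Scd2) put in a double bond. The transcription factors SREBP-1 (gene Srebf1), which acts downstream of insulin, and ChREBP (gene Mlxipl), which responds to glucose, switch these genes on. The pathway is best known from liver and adipose tissue, and skeletal muscle also contains adipocytes between its fibres.

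The values were RMA signals on the log2 scale, which ran from 3.67 to 15.46, and array medians lay between 7.595 and 7.702. All 10 measured muscle fibre markers were among the brightest transcripts in every group. Creatine kinase Ckm averaged 15.42 ± 0.024 at 5 days, 15.43 ± 0.013 at 42 days and 15.44 ± 0.010 on chow, and skeletal actin Acta1 averaged 15.38 ± 0.008, 15.40 ± 0.010 and 15.39 ± 0.013 in the same order (log2 signal, SD, n = 4 arrays each). A difference between groups is called here at an adjusted p under 0.05, from limma fitted to all 12 arrays and 45037 probe sets. In what follows log2 fold changes are HFD minus chow with their SE, and group values are mean log2 signals with their SD over 4 arrays. Depth has no counterpart on arrays, and 4 arrays a group set the precision. Signals of different probe sets are not on a shared scale. Ranks by brightness and means over markers serve here to choose probe sets and to describe arrays. They are not read as relative amounts of different transcripts.

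The stretch just before the transcription start is known to bind SREBP-1 and partner factors such as NF-Y and Sp1 in several lipogenic genes. RefSeq promoter windows of build GRCm38.p6 (the 250 bases before an annotated start) were found for 8 of the 10 genes and gave 11 windows. Scd1 and Scd2 had no entry. Exact matches on either strand to 4 short motifs were searched: the CCAAT box bound by NF-Y, the GC box GGGCGG bound by Sp1, the E-box CACGTG, and TCACNCCAC, a form of the sterol regulatory element. Of the genes that fell at both times, the windows of Fasn, Acly and Thrsp are shown because they held a match. The window of the inner annotated start of Mlxipl is shown because it alone held a TCACNCCAC match. Capitals mark the matches, and each sequence reads 5′ to 3′ on the gene's strand, with positions counted back from -1 at the base before the start.
Fasn, chr11:120824548-120824797, minus strand: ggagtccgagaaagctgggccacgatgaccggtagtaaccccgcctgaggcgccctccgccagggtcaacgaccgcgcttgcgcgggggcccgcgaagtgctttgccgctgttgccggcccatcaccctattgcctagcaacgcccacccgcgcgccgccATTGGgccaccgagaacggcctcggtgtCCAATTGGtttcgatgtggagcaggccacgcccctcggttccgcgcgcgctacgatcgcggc
Acly, chr11:100528001-100528250, minus strand: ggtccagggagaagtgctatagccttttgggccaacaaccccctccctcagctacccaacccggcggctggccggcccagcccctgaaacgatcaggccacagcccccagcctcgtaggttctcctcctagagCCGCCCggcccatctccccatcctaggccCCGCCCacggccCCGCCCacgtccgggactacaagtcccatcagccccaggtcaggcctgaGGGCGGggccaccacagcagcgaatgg
Thrsp, chr7:97417551-97417800, minus strand: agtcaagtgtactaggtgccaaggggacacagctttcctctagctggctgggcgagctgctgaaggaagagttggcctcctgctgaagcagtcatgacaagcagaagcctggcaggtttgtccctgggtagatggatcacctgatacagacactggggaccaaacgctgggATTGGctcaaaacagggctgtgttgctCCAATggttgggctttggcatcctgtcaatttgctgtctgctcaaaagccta
Mlxipl, inner start, chr5:135106641-135106890, plus strand: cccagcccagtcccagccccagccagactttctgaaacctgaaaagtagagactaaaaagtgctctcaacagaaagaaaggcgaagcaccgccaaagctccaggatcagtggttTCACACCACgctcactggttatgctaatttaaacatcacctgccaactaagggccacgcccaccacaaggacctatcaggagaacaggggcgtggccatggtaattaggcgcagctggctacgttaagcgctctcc
Fasn held a CCAAT box on the opposite strand at -90 to -86, and a pair that overlap each other, on its own strand at -62 to -58 and on the opposite strand at -59 to -55. Acly held no CCAAT box but 4 GC boxes, the nearest at -27 to -22. Thrsp held CCAAT boxes at -79 to -75 and -52 to -48. In Mlxipl the sterol element match lay at -136 to -128. The 1 window found for Acaca and the 1 for Elovl6, whose transcripts also fell, matched none of the 4 motifs. Starts of these genes outside the reference were not searched. The window of Elovl5 and at least 1 window each of Srebf1 and Mlxipl held a CCAAT box. Over all 32851 windows of the reference, 33.8% held a CCAAT box, 32.7% the GC box, 6.02% the E-box and 1.05% TCACNCCAC. Among the 11 windows of these genes the counts were 6, 4, 2 and 1. A match is only a string of letters and was not tested as a binding site.

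After 5 days of high-fat diet, transcripts of enzymes of citrate cleavage, carboxylation, synthesis, elongation and desaturation were lower than on chow, though not of every enzyme measured. Read by the brightest probe set of each gene, 6 of the 10 genes fell (Fasn, Elovl6, Scd1, Acly, Acaca and Thrsp), where 1.65% of all 18193 genes did. The 4 that did not pass were Scd2, Elovl5, Srebf1 and Mlxipl. Probe set by probe set, 9 of 24 fell, where 1.68% of all probe sets did, and none rose by limma's test, with 12 lower and 1 higher at an unadjusted p under 0.05. In 10 of the 24 every 5-day array lay below every chow array, as did 6.83% of all probe sets. The median log2 fold change was -0.17 over the 24 probe sets and -0.02 over all. By the brightest probe sets it was -0.89 for the 10 genes and -0.01 for all genes.

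After 42 days, 7 of the 10 genes were lower than on chow by their brightest probe set, where 3.9% of all genes fell: the same 6 and Mlxipl. Probe set by probe set, 10 of 24 fell, where 4.13% of all probe sets did, and 1 of 24, a probe set of Scd2, rose, where 4.65% of all did. In 10 every 42-day array lay below every chow array, as did 7.81% of all probe sets. The median was -0.16 over the 24 probe sets and -0.01 over all. Both comparisons use the same 4 chow arrays, so a chow array that stands high lowers both. The test of any difference among the 3 groups passed in 11 of 24 probe sets, or 45.8%, where 12.9% of all passed.

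**Figure D1:**
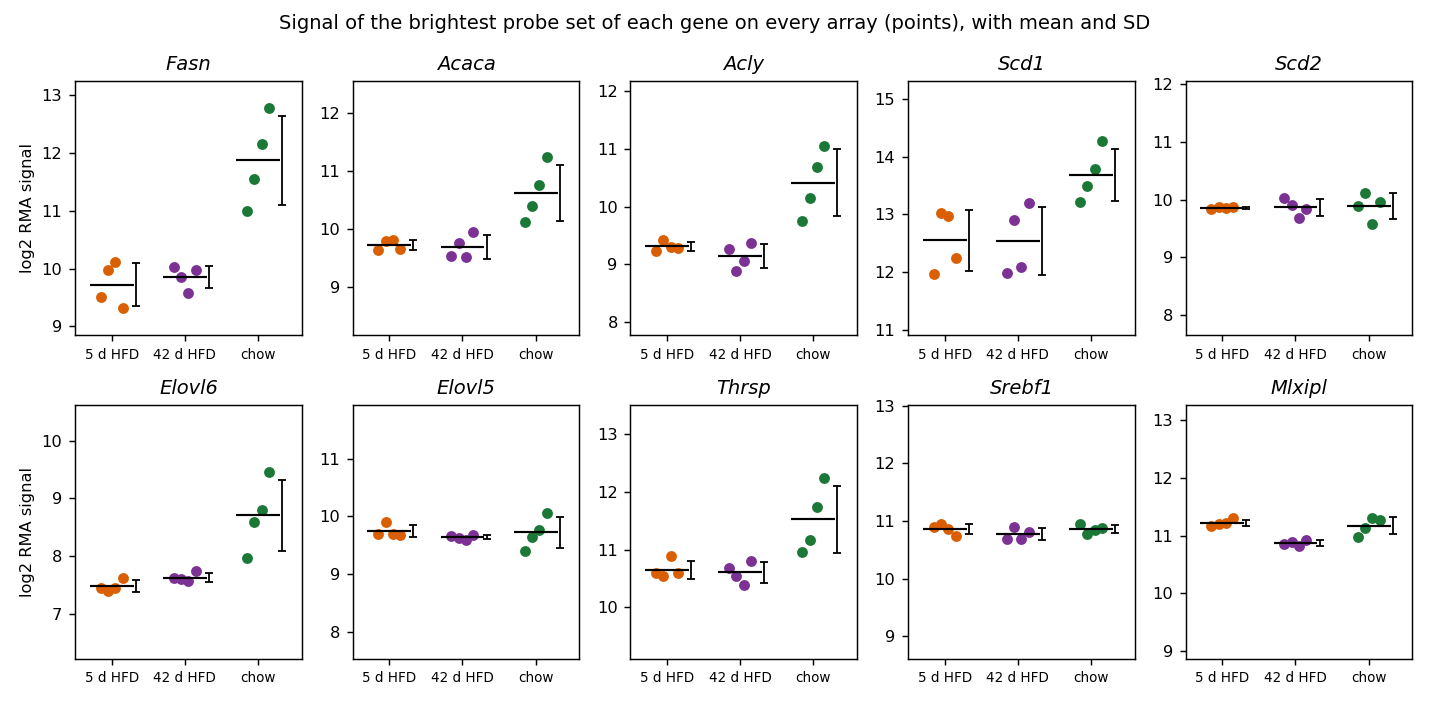
Log2 RMA signal (y axis, every panel spans the same number of log2 units) of the brightest probe set of each of the 10 genes on every array, by group (x axis: 5 days of HFD, 42 days of HFD, chow); points are arrays, the horizontal line is the mean and the bar beside it the SD of 4 arrays. In Fasn, Acaca, Acly, Scd1, Elovl6 and Thrsp all 8 HFD arrays lie below the 4 chow arrays, and in Mlxipl the 42-day arrays do.

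**Figure D2:**
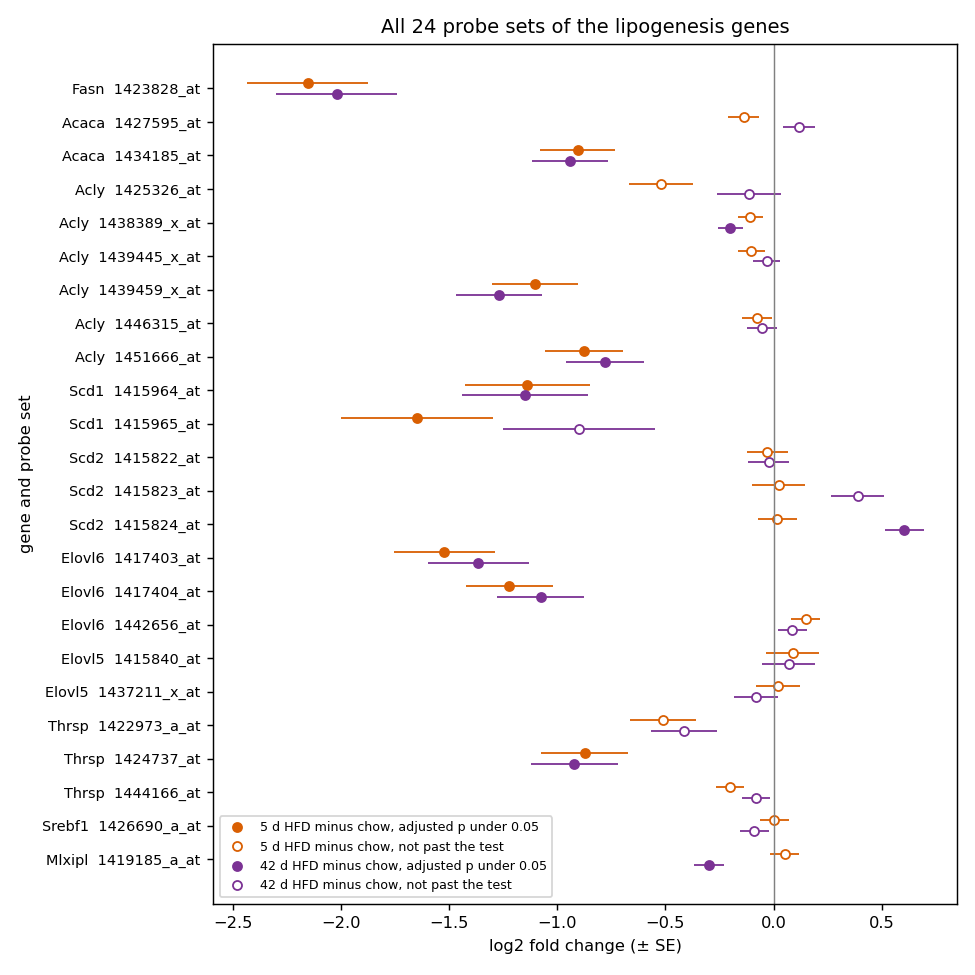
Log2 fold change with SE (x axis) of all 24 probe sets (y axis), at 5 days and at 42 days of HFD against chow; filled points passed an adjusted p under 0.05. Fasn is farthest from 0 at both times, at -2.15 and -2.02, and 1 probe set of Scd2 at 42 days is the only filled point above 0.

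The fall was not even among the arrays of a group. In all 9 probe sets that fell at 5 days, chow replicate 4 was the highest chow array and chow replicate 1 the lowest. The chow SD of these probe sets lay between 0.451 and 0.771, above the 5-day SD in 8 of the 9 and above the 42-day SD in 7. The fit shares 1 spread among the 3 groups. Where the chow arrays spread most, the tighter HFD arrays can make the SE and p of a fall too small. With only the 8 arrays of a comparison fitted, 0 of 24 passed at 5 days (12 at an unadjusted p under 0.05, limma), with 7 calls over all probe sets. At 42 days 10 of 24 passed in that fit. The 5-day calls rest on single arrays: without chow replicate 3, 0 of 24 probe sets passed limma's test (13 at an unadjusted p under 0.05), and without 5-day replicates 2 and 4, left out in turn, 1 and 4 passed. Over all probe sets the number of 5-day calls in either direction was 1445 with every array, 5 without chow replicate 3 and 5 without 5-day replicate 2. At 42 days 7 to 12 of 24 passed when single arrays were left out, with the 7 reached without chow replicate 3.

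Acly, which supplies cytosolic acetyl-CoA, fell by its bright probe sets. Probe set 1439459_x_at measured 9.230, 9.415, 9.307 and 9.285 on the 5-day arrays, 9.260, 8.891, 9.059 and 9.364 on the 42-day arrays, and 9.755, 10.145, 10.692 and 11.058 on the chow arrays. The chow arrays lay above all HFD arrays, and the 5-day arrays within 0.19 of each other. Its log2 fold change was -1.10 ± 0.20 at 5 days, 2.15-fold lower (adjusted p = 0.0275), and -1.27 ± 0.20 at 42 days, 2.41-fold lower (adjusted p = 0.00162). Probe set 1451666_at showed the same order, with 9.249, 9.374, 9.077 and 9.207 at 5 days, 9.345, 9.158, 9.211 and 9.583 at 42 days, and 9.622, 9.750, 10.323 and 10.716 on chow. It fell by 0.88 ± 0.18 on the log2 scale at 5 days (adjusted p = 0.0302) and by 0.78 ± 0.18 at 42 days (adjusted p = 0.015), though the highest 42-day array and the lowest chow array were only 0.039 apart and the 42-day call was lost without chow replicate 3 (-0.71, adjusted p = 0.062).

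The other 4 Acly probe sets did not follow closely. Probe set 1425326_at was at -0.52 ± 0.15 at 5 days (adjusted p = 0.0609) and at -0.11 ± 0.15 at 42 days (adjusted p = 0.709). Probe set 1438389_x_at passed at 42 days with a change of -0.20 ± 0.058 (adjusted p = 0.0437), but its mean signal was 3.94 and only 0.131% of probe sets were dimmer, and the call held in 4 of 12 fits without 1 array. Probe sets 1439445_x_at and 1446315_at stayed between -0.10 and -0.03 at both times. The ending x_at is the maker's mark for probes that can also bind other transcripts, which applies to 3 of the 6. Probe sets of 1 gene read the same RNA and are not replicates of each other.

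Acaca, the carboxylase that commits acetyl-CoA to fatty acid synthesis, was measured by a bright and a dimmer probe set. The bright one, 1434185_at, gave 9.638, 9.791, 9.812 and 9.645 at 5 days, 9.537, 9.748, 9.509 and 9.947 at 42 days, and 10.117, 10.394, 10.756 and 11.239 on chow. No HFD array reached the chow range. The log2 fold change was -0.91 ± 0.17 at 5 days, 1.87-fold lower (adjusted p = 0.0288), and -0.94 ± 0.17 at 42 days, 1.92-fold lower (adjusted p = 0.00408). The dimmer probe set, 1427595_at, with 33.9% of probe sets below it, was at -0.14 ± 0.073 (adjusted p = 0.256) and 0.12 ± 0.073 (adjusted p = 0.361) and its groups overlapped the chow arrays at both times.

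Fasn, the multi-step enzyme that builds palmitate, had the largest fall of the 10 genes at both times by their brightest probe sets. Its probe set 1423828_at measured 9.505, 9.968, 10.108 and 9.310 on the 5-day arrays, 10.021, 9.859, 9.583 and 9.968 on the 42-day arrays, and 11.002, 11.547, 12.166 and 12.786 on the chow arrays. All 8 HFD arrays lay at or below 10.108, and the lowest chow array stood 0.894 above the highest of them. The means were 9.72 ± 0.38 at 5 days, 9.86 ± 0.20 at 42 days and 11.88 ± 0.77 on chow. The fold changes were -2.15 ± 0.28, or 4.45-fold lower (adjusted p = 0.0112), and -2.02 ± 0.28, or 4.05-fold lower (adjusted p = 0.000828). The 42-day call held without each array in turn, with log2 fold changes between -2.31 and -1.40 over all 25 alternatives tried. The 5-day call held in 11 of 12 such fits and was lost without chow replicate 3 (-2.06, adjusted p = 0.0552).

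Thrsp (Spot 14), a small protein induced by thyroid hormone and carbohydrate in lipogenic tissue, fell by its brightest probe set. Probe set 1424737_at gave 10.604, 10.538, 10.886 and 10.593 at 5 days, 10.680, 10.547, 10.387 and 10.809 at 42 days, and 10.955, 11.176, 11.747 and 12.234 on chow. The groups did not overlap, but the highest 5-day array was only 0.069 below the lowest chow array. Its log2 fold change was -0.87 ± 0.20 at 5 days (adjusted p = 0.0365) and -0.92 ± 0.20 at 42 days (adjusted p = 0.011). The 5-day call was lost when any of 5 arrays was left out (chow replicates 3 and 4, 5-day replicates 1, 2 and 4), with adjusted p of 0.0517 to 0.108. The 42-day call held without each array in turn and was lost with the mean of adipocyte markers as a covariate (-0.58, adjusted p = 0.114), with the mean of Ucp1 and Cidea (-0.47, adjusted p = 0.123) and without chow replicates 3 and 4 together (-0.46, adjusted p = 0.0857). Probe sets 1422973_a_at (-0.51 ± 0.15, adjusted p = 0.0684, and -0.41 ± 0.15, adjusted p = 0.108) and 1444166_at (-0.20 ± 0.065, adjusted p = 0.0838, and -0.08 ± 0.065, adjusted p = 0.494) did not pass at 5 or 42 days.

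The elongases parted. Elovl6, which lengthens palmitate to stearate, fell by 2 of its 3 probe sets. Probe set 1417404_at gave 7.452, 7.401, 7.457 and 7.624 at 5 days, 7.616, 7.603, 7.566 and 7.736 at 42 days, and 7.972, 8.591, 8.798 and 9.460 on chow. The HFD arrays lay close together at both times, with SDs of 0.097 and 0.074, while the chow arrays had an SD of 0.613. It was 2.33-fold lower at 5 days (-1.22 ± 0.20, adjusted p = 0.0229) and 2.11-fold lower at 42 days (-1.07 ± 0.20, adjusted p = 0.00451). Probe set 1417403_at gave 5.896, 5.868, 6.076 and 6.039 at 5 days, 6.043, 6.207, 5.860 and 6.397 at 42 days, and 6.540, 7.473, 7.809 and 8.142 on chow. That was a change of -1.52 ± 0.24 at 5 days (adjusted p = 0.0229) and of -1.36 ± 0.24 at 42 days (adjusted p = 0.00265), from a dim probe set with 25.6% of probe sets below it. The third, 1442656_at, was dimmer still and at 0.15 ± 0.067 (adjusted p = 0.195) and 0.09 ± 0.067 (adjusted p = 0.494).

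Elovl5, an elongase that works mainly on polyunsaturated fatty acids, did not pass at either time. Its probe set 1437211_x_at averaged 9.74 ± 0.11 at 5 days, 9.64 ± 0.039 at 42 days and 9.72 ± 0.27 on chow. The 95% intervals of its log2 fold changes were -0.20 to 0.24 at 5 days and -0.30 to 0.14 at 42 days, which leave out a fall of the size seen in Elovl6. Probe set 1415840_at was at 0.09 ± 0.12 and 0.07 ± 0.12 (adjusted p = 0.694 and 0.793). On chow both probe sets were highest on replicate 4 and lowest on replicate 1, as the probe sets that fell were.

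Scd1, the desaturase that makes oleate and palmitoleate, fell by probe set 1415964_at. It measured 11.971, 13.032, 12.965 and 12.241 at 5 days, 11.989, 12.898, 12.087 and 13.190 at 42 days, and 13.221, 13.485, 13.779 and 14.274 on chow. The HFD arrays spread over more than 1 log2 unit in either group, and the highest 42-day array came within 0.031 of the lowest chow array. The log2 fold changes were -1.14 ± 0.29, or 2.2-fold lower (adjusted p = 0.047), and -1.15 ± 0.29, or 2.22-fold lower (adjusted p = 0.023). The call held in 4 of 12 fits without 1 array at 5 days, with adjusted p up to 0.102, and in 8 of 12 at 42 days. At 5 days it held without chow replicate 1, 5-day replicate 3, 42-day replicate 1 or 42-day replicate 4, and at 42 days it was lost without chow replicate 3 or 4 or 42-day replicate 1 or 3 (adjusted p of 0.0673 to 0.074).

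The dimmer Scd1 probe set, 1415965_at, gave 7.342, 8.607, 8.223 and 7.859 at 5 days, 8.318, 8.713, 8.193 and 9.800 at 42 days, and 9.005, 9.351, 9.765 and 10.501 on chow. It was 3.13-fold lower at 5 days (-1.65 ± 0.35, adjusted p = 0.032), and at 42 days stood at -0.90 ± 0.35 (adjusted p = 0.132), with 42-day replicate 4 inside the chow range. Without that array the 42-day change passed (-1.25, adjusted p = 0.0341).

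Scd2, the desaturase best known from brain and the developing animal, gave another picture in each of its 3 probe sets. The brightest, 1415822_at, was level, at -0.03 ± 0.095 at 5 days (adjusted p = 0.883) and -0.02 ± 0.095 at 42 days (adjusted p = 0.924), with 95% intervals of -0.23 to 0.17 and -0.23 to 0.18. The dimmest, 1415824_at, gave 6.429, 6.611, 6.482 and 6.689 at 5 days, 7.226, 7.097, 6.985 and 7.247 at 42 days, and 6.718, 6.480, 6.307 and 6.639 on chow. All 42-day arrays lay above all others, and the 5-day and chow arrays overlapped. It rose 1.52-fold at 42 days (0.60 ± 0.090, adjusted p = 0.00123), a call that held in all 22 alternatives that kept the probe set, and was at 0.02 ± 0.090 at 5 days (adjusted p = 0.931). The third, 1415823_at, was at 0.39 ± 0.12 at 42 days (adjusted p = 0.0646). Scd1 and Scd2 lie on chromosome 19 and are similar in sequence, and binding of one transcript to the other's probes was not tested.

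Of the regulators, Srebf1 was level. Its probe set 1426690_a_at, which reads more than 1 transcript form, gave 10.891, 10.952, 10.870 and 10.747 at 5 days, 10.693, 10.901, 10.691 and 10.807 at 42 days, and 10.955, 10.775, 10.847 and 10.871 on chow. The groups overlapped throughout. Its log2 fold change was 0.00 ± 0.066 at 5 days (adjusted p = 0.983) with a 95% interval of -0.14 to 0.14, and -0.09 ± 0.066 at 42 days (adjusted p = 0.461) with an interval of -0.23 to 0.05. The SREBP-1a and SREBP-1c forms cannot be told apart by this value, nor can the cleavage that makes the protein active be read from RNA.

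Mlxipl (ChREBP) fell at 42 days by a small amount. Probe set 1419185_a_at measured 11.166, 11.201, 11.215 and 11.303 at 5 days, 10.854, 10.894, 10.819 and 10.922 at 42 days, and 10.985, 11.125, 11.301 and 11.271 on chow. All 42-day arrays lay below all others, by 0.063 from the lowest chow array. The change was -0.30 ± 0.068 at 42 days, or 1.23-fold lower (adjusted p = 0.014), and 0.05 ± 0.068 at 5 days (adjusted p = 0.679). The 42-day call was lost without chow replicate 3 (-0.25, adjusted p = 0.0525), without chow replicates 3 and 4 together (-0.18, adjusted p = 0.231), with the mean of the adipocyte markers in the fit (-0.23, adjusted p = 0.135) and with that of Ucp1 and Cidea (-0.18, adjusted p = 0.195).

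Set against each other, the HFD times differed in 3 of the 24 probe sets, where 5.98% of all did in either direction. Both groups began the diet at 6 weeks of age, so the 42-day mice were also older. Time on the diet and age cannot be told apart here. Mlxipl was 0.35 ± 0.068 lower at 42 than at 5 days (log2 fold change -0.35, adjusted p = 0.0206), Scd2 probe set 1415824_at higher (0.59 ± 0.090, adjusted p = 0.0126), and Acaca probe set 1427595_at higher (0.26 ± 0.073, adjusted p = 0.0499). The Acaca value was not past the test in 11 of 12 fits without 1 array, with adjusted p up to 0.131, and the Mlxipl value in 4 of 12 (without 5-day replicate 2 or 3 or 42-day replicate 1 or 4, adjusted p up to 0.0644). The count was 0 of 24 without 42-day replicate 4 (4 at an unadjusted p under 0.05, limma) and 1 without 42-day replicate 1, 5-day replicate 2 or 5-day replicate 3. For the genes that fell at both times the difference between times did not pass by their brightest probe sets. It was 0.14 ± 0.28 for Fasn (adjusted p = 0.777, 95% interval -0.46 to 0.73), -0.04 ± 0.17 for Acaca probe set 1434185_at (adjusted p = 0.909) and -0.05 ± 0.20 for Thrsp probe set 1424737_at (adjusted p = 0.892). These SEs come from the fit to all 3 groups, so they carry the spread of the chow arrays, which are not part of this comparison. Elovl6 probe set 1417404_at was at 0.15 ± 0.20 (adjusted p = 0.658). Its SD was 0.097 at 5 days and 0.074 at 42 days, against 0.613 on chow, so its SE is wide for these HFD arrays. Dimmer probe sets of Acly and Scd1 were larger beside their error and higher at 42 days, but did not pass. These were Acly 1425326_at at 0.41 ± 0.15 (adjusted p = 0.0967) and Scd1 1415965_at at 0.75 ± 0.35 (adjusted p = 0.182). The Acly value passed without chow replicate 4 (adjusted p = 0.0438).

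Adipocyte transcripts were lower on average in the HFD arrays as well. The mean of the 9 measured of 12 listed adipocyte markers was 8.99, 9.18, 9.34 and 8.99 on the 5-day arrays, 8.85, 9.64, 9.11 and 9.50 on the 42-day arrays, and 9.38, 9.61, 9.63 and 10.27 on the chow arrays. Of the 9, Retn (-0.97, adjusted p = 0.0339) and Cidec (-1.33, adjusted p = 0.0469) fell at 5 days, where 1.65% of all genes did, and none passed at 42 days (5 at an unadjusted p under 0.05, limma). The brightest were the fatty acid carrier Fabp4 (-0.35 at 5 days, adjusted p = 0.0949, and -0.24 at 42 days, adjusted p = 0.233) and adiponectin, or Adipoq (-1.05, adjusted p = 0.0825, and -0.84, adjusted p = 0.14). Of 7 brown adipocyte markers none passed at either time (3 at an unadjusted p under 0.05 each time, limma). Their mean was 6.93 ± 0.061 at 5 days, 7.12 ± 0.25 at 42 days and 7.47 ± 0.37 on chow, and at 42 days 4 of the 7 had lower and 3 higher values: Zic1 was at 0.15, Lhx8 at 0.12, Dio2 at 0.02, Ebf2 at -0.20 and Otop1 at -0.20. The 2 brightest over the 12 arrays, Cidea and the uncoupling protein Ucp1, averaged together 7.82 ± 0.17 at 5 days, 8.22 ± 0.75 at 42 days and 9.38 ± 1.08 on chow, with chow arrays at 7.92, 9.27, 9.90 and 10.43. Ucp1 ranked there through its chow arrays. It averaged 7.43 at 5 days, below Dio2 (7.935) and Ebf2 (7.864), and 8.904 on chow, above both (8.072 and 7.941). The pair was thus picked partly by its chow values, also where it serves as a covariate. In bulk RNA, fewer cells of a type and less RNA per cell cannot be told apart.

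Single arrays with a like level of these markers were set side by side, as a description. Chow replicate 1 had an adipocyte mean of 9.38 and a Ucp1 and Cidea mean of 7.92, inside the range of the HFD arrays for both, and its Fasn signal of 11.002 was above all 8 of them. The 42-day replicates 2 and 4 had adipocyte means of 9.64 and 9.50, close to chow replicates 1 to 3, and Fasn signals of 9.859 and 9.968. On the same arrays Scd1 probe set 1415964_at measured 12.898 and 13.190, against 13.221 on chow replicate 1. Thrsp probe set 1424737_at measured 10.955 on chow replicate 1 and 10.886 on 5-day replicate 3, whose adipocyte mean was 9.34. Acaca probe set 1434185_at measured 10.117 on chow replicate 1 and 9.947 on 42-day replicate 4. Whether the adipocyte transcripts account for the Fasn values was not tested by single arrays. With the adipocyte mean as a covariate in the fit, Fasn was at -1.50 at 5 days (adjusted p = 0.0668) and fell by 1.53 at 42 days (adjusted p = 0.0102), and with the mean of Ucp1 and Cidea it was at -1.32 (adjusted p = 0.0556) and -1.40 (adjusted p = 0.00823). Scd1 probe set 1415964_at was at -0.28 (adjusted p = 0.45) and -0.50 (adjusted p = 0.161) with the adipocyte mean, and at -0.29 (adjusted p = 0.538) and -0.52 (adjusted p = 0.276) with Ucp1 and Cidea.

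The covariate fits called none of the 24 probe sets at 5 days by limma (8 and 10 at an unadjusted p under 0.05 with the adipocyte mean and with Ucp1 and Cidea), and they called 2 and 43 of all 45037. At 42 days they called 5 and 6 of the 24, where 2.83% and 2.27% of all probe sets were called in either direction. Acaca probe set 1434185_at was among them (-0.58, adjusted p = 0.0259, and -0.51, adjusted p = 0.0186). Acly probe set 1451666_at was not (-0.53, adjusted p = 0.152, and -0.38, adjusted p = 0.182), and Elovl6 probe set 1417404_at was at -0.74 (adjusted p = 0.0521) with the adipocyte mean. Leaving out chow replicates 3 and 4 together, chosen after their values were seen, left 1 call at 5 days (Fasn) and 6 at 42 days. The part of the adipocyte transcripts in the falls, that of Fasn included, was not tested beyond these fits.

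**Figure D3:**
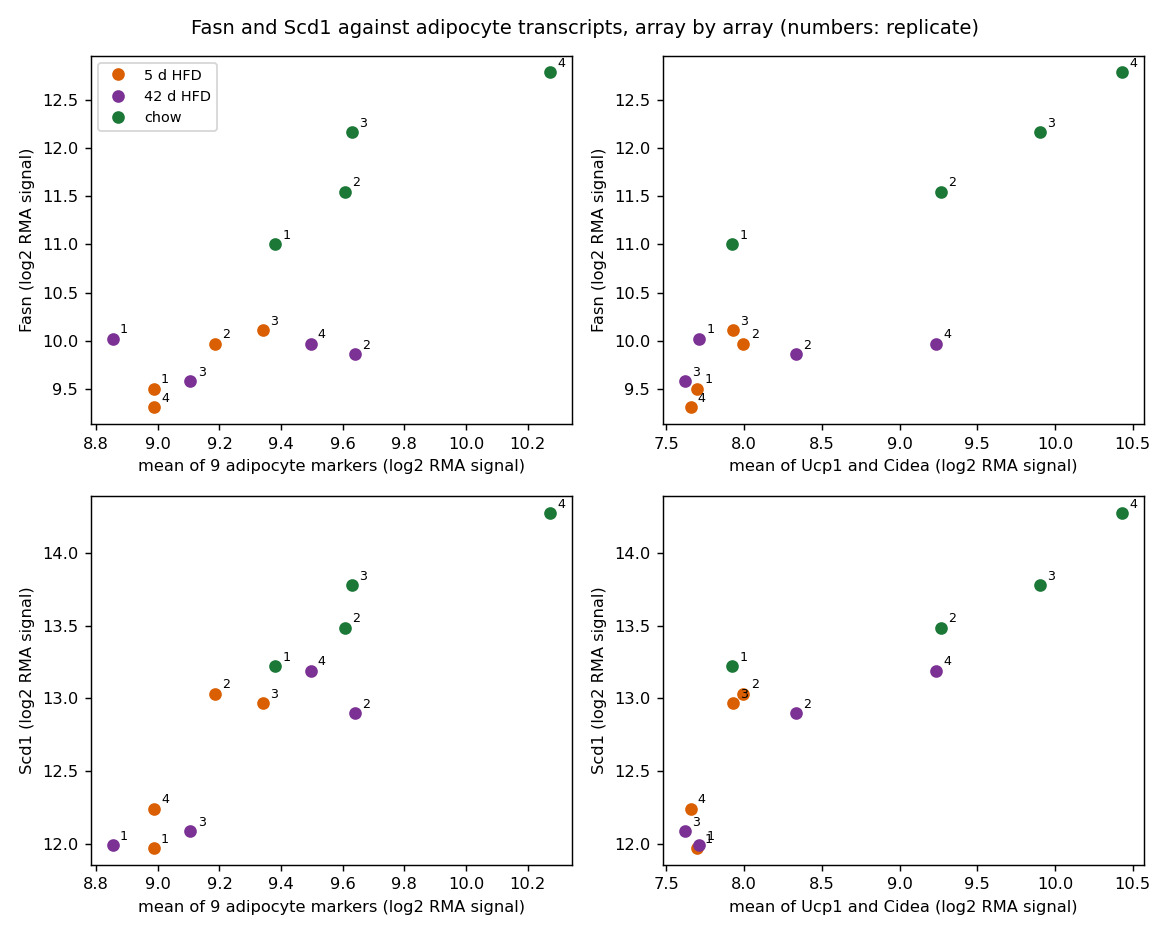
Log2 RMA signals of Fasn probe set 1423828_at (upper row) and Scd1 probe set 1415964_at (lower row) on the y axis against the mean of the 9 adipocyte markers (left) and of Ucp1 and Cidea (right) on the x axis, each point an array, with its replicate number. Chow replicate 1, a single array, lies within the HFD arrays on both x axes. Its Fasn signal is 11.002 where the highest HFD array has 10.108, and its Scd1 signal is 13.221 where the highest HFD array has 13.190.

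Markers of other tissues were read in the same way. All 10 liver transcripts rose at 42 days, where 2.41% of all genes did, with a median of 1.10. The brightest were albumin, or Alb (2.19 ± 0.39, adjusted p = 0.00301), and transthyretin, or Ttr (0.54 ± 0.14, adjusted p = 0.0272). None passed at 5 days, and 0 had an unadjusted p under 0.05. Their mean per array ran from 7.72 to 9.12 at 5 days, from 8.80 to 9.93 at 42 days and from 7.94 to 8.30 on chow. Their part in the values of the lipogenic genes was not tested. Of the 3 measured Schwann cell markers and of the 10 muscle markers none passed against chow at either time, with 0 of the first and 1 of the second at an unadjusted p under 0.05 (limma). The brightest Schwann cell markers were Pmp22 (0.12 at 5 days and 0.04 at 42 days) and Mbp (0.09 and -0.11).

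In the wider pathway the citrate carrier Slc25a1, the transketolase Tkt and the acyltransferase Agpat2 fell at both times. Over 7 lists of related genes, with 49 of 53 listed genes measured, 3 fell at 5 days, where 1.65% of all genes did. At 42 days 10 fell, where 3.9% of all genes did, and 1 rose, a share near the 2.41% of all genes that rose. The median of the 49 was -0.03 at 5 days and -0.07 at 42 days, beside -0.01 for all genes at both. Leaving out single arrays, the 5-day count became 0 by limma without chow replicate 3 (16 at an unadjusted p under 0.05) or without 5-day replicate 2 (13), 5 without chow replicate 1 or 2, and 1 without replicate 4 of the 5-day arrays, and the 11 calls at 42 days became 5 without chow replicate 3, chow replicate 4 or 42-day replicate 1 and 6 without 42-day replicate 3. Among the 5 measured genes of citrate and acetyl-CoA supply, Slc25a1, the mitochondrial citrate carrier, fell at both times. It averaged 8.58 ± 0.17 at 5 days, 8.69 ± 0.18 at 42 days and 9.95 ± 0.64 on chow, with log2 fold changes of -1.38 ± 0.22 (adjusted p = 0.0229) and -1.26 ± 0.22 (adjusted p = 0.00295). Pyruvate carboxylase Pcx (-0.57 ± 0.14, adjusted p = 0.0165) and the acetyl-CoA synthetase Acss2 (-0.37 ± 0.096, adjusted p = 0.0273) fell at 42 days.

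Of 5 measured genes of NADPH supply, the transketolase Tkt of the pentose phosphate pathway fell at 5 days (-1.56 ± 0.29, adjusted p = 0.0283) and at 42 days (-1.71 ± 0.29, adjusted p = 0.00262). It averaged 10.13 ± 0.21 at 5 days, 9.98 ± 0.39 at 42 days and 11.69 ± 0.81 on chow. Pgd (-0.49 ± 0.11, adjusted p = 0.0127) and Taldo1 (-0.26 ± 0.064, adjusted p = 0.0219), of the same pathway, fell at 42 days. Among 6 glycerolipid genes, Agpat2, which acylates lysophosphatidic acid, fell at both times (-0.84 ± 0.19, adjusted p = 0.035, and -0.66 ± 0.19, adjusted p = 0.0371). Dgat1, which completes triglyceride (-0.45 ± 0.13, adjusted p = 0.0419), and the lipid droplet protein Pnpla3 (-0.18 ± 0.052, adjusted p = 0.0413) fell at 42 days.

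Among 12 measured partners of the regulators none passed at 5 days (2 at an unadjusted p under 0.05, limma), and Insig1, a target of the SREBPs that holds them in the endoplasmic reticulum, fell at 42 days. It averaged 8.31 ± 0.096 at 5 days, 8.17 ± 0.16 at 42 days and 8.82 ± 0.36 on chow, and its changes were -0.51 ± 0.13 (adjusted p = 0.0522) and -0.64 ± 0.13 (adjusted p = 0.00835). None of the 5 measured glucose-responsive targets and of the 3 genes that control malonyl-CoA passed at either time. At an unadjusted p under 0.05 the first list had 2 at 5 days and 1 at 42 days, and the second 0 and 1. Of 13 other elongation and desaturation genes 1 passed against chow, the elongase Elovl2, which rose at 42 days (0.67 ± 0.11, adjusted p = 0.00182) and was dim, at 5.39 ± 0.24 at 42 days and 4.72 ± 0.15 on chow. Between the HFD times Elovl2 (0.41 ± 0.11, adjusted p = 0.0407) and Elovl3 (0.27 ± 0.067, adjusted p = 0.0348) were higher at 42 days, and the dehydratase Hacd3 lower (-0.27 ± 0.072, adjusted p = 0.0435), where 6.1% of all genes differed in either direction. None of the 49 differed between the times without 5-day replicate 2 or 3 or 42-day replicate 1, 2 or 4 (9 to 11 at an unadjusted p under 0.05, limma), 1 did without 5-day replicate 4 and 5 did without 5-day replicate 1.

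**Figure D4:**
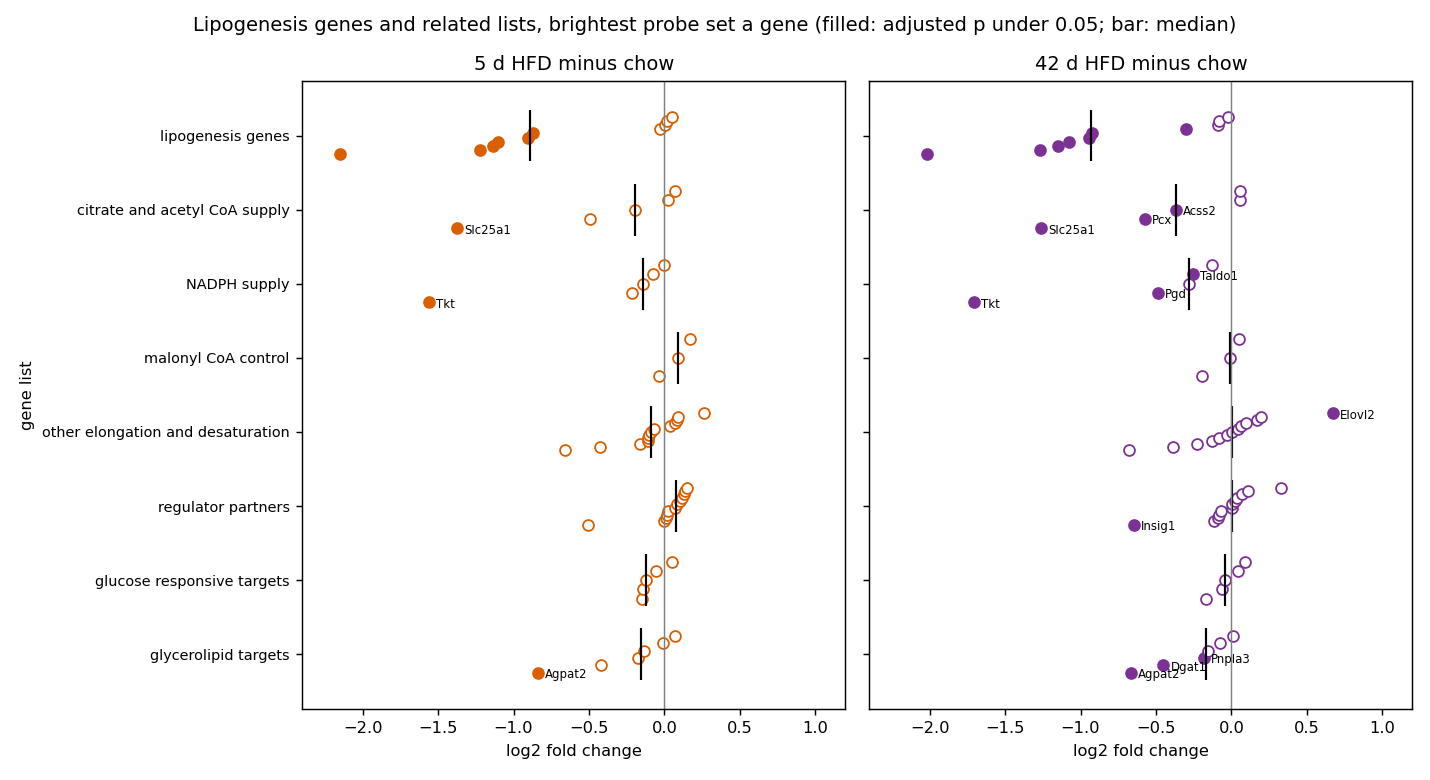
Log2 fold change (x axis) of the 10 lipogenesis genes and of the genes of 7 related lists (y axis) by their brightest probe set, at 5 days (left) and 42 days (right) of HFD against chow; filled points passed an adjusted p under 0.05 and the vertical bar is the list's median. The lipogenesis genes have medians of -0.89 and -0.93, and genes past the test outside them include Slc25a1 and Tkt on both sides.

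The genes whose signal ran most like that of Fasn over the 12 arrays were sought among 18192 others by Pearson's r of the brightest probe sets, as a description. Slc25a1 came first with r = 0.989, and after it, in this order, Acaca (0.967), Tkt (0.965), Acly (0.962), Elovl6 (0.955) and Thrsp (0.953). Next, outside the 10 genes, were Aldh1a7, an aldehyde dehydrogenase (0.94), Csad, an enzyme of taurine synthesis (0.935), and Agpat2 (0.931). Aldh1a7 fell at 5 days (-0.87 ± 0.22, adjusted p = 0.0455) and 42 days (-0.88 ± 0.22, adjusted p = 0.0217), as did Csad (-0.48 ± 0.11 both times, adjusted p = 0.0393 and 0.0163). Scd1 ranked 42 with r = 0.878, close to Cidea (0.864) and Ucp1 (0.843). The other lipogenesis genes were far from it, Elovl5 at 0.424, Mlxipl at 0.394, Srebf1 at 0.217 and Scd2 at 0.0628. After each group's mean was taken off, r with Fasn was 0.962 for Slc25a1, 0.918 for Thrsp, 0.902 for Elovl5, 0.901 for Acaca, 0.887 for Acly and 0.81 for Elovl6. It was 0.693 for Scd1, 0.683 for Mlxipl, 0.0768 for Srebf1 and -0.0499 for Scd2. For the adipocyte markers it was 0.793 (Ucp1), 0.771 (Cidea) and 0.619 (Adipoq), so Ucp1 and Cidea stood above Scd1 and Mlxipl. These arrays share the group difference and the spread among the chow arrays, so the values are not independent of the fold changes above. Aldh1a7 and Csad were picked by their r with Fasn over these same arrays, so their falls and p-values are no separate result.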

How the data were processed

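The authors deposited 1 value per probe set and array. Per the submitters' processing notes these are RMA values; their version was not given in the sources used here, and the log2 scale of the deposited values was inferred from their range. Of 45098 probe sets, 61 controls were left out. Probe sets were named by the platform's annotation, which can be old; 34945 had 1 symbol. The main test was limma (version 3.58.1, R 4.3.3) on group means of all 12 arrays (lmFit and eBayes, 9 residual and 6.26 prior degrees of freedom), with two-sided contrasts and Benjamini-Hochberg adjustment over 45037 probe sets within a contrast. Lists were read by each gene's brightest probe set over the 12 arrays. The procedure was tested on simulated data. No array could be placed in a batch from the labels.

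The 10 genes, the lists and the tests were chosen with earlier results of these data known. Named were all 10 genes with every probe set, every pathway gene past the test in a contrast (at most 4 a list), list means with the 2 brightest markers, and the 5 other genes most like Fasn; Retn, Cidec, Zic1, Lhx8, Dio2, Ebf2 and Otop1 were added after their values were seen. Replicate numbers showed no clear pairing of the arrays: their deviations from group means correlated between -0.176 and 0.178, above 0.1 in 4 of 12 pairs. Alternatives were quantile normalization, median centring, leaving out the 40% dimmest probe sets, probe sets with 1 symbol, the brightest probe set a gene, array weights, a trended robust prior, the 8 arrays compared, a replicate block, the adipocyte mean as covariate and each array left out. For each gene's brightest probe set an exact permutation test, read at an unadjusted p under 0.05, was counted as well. With 4 against 4 arrays its smallest two-sided p is 0.0286. Groups that do not overlap always give that value, so there it adds nothing to the lack of overlap. The Ucp1 and Cidea covariate and the fit without chow replicates 3 and 4 were added after the data were seen.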

Additional observations from a re-analysis of the deposited data

Results flagged for a closer look

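In 6 of 72 groups of 4 arrays 1 array stood apart, by its gap to the nearest array over the whole range of the group; chance gives about 1 group in 20. Chow replicate 4 was high in Acly probe set 1425326_at (9.131, the next array 8.497, gap over range 0.887). At 5 days replicate 1 was high in Acly probe set 1446315_at (7.597, the next 7.392, 0.833), replicate 2 was high in Elovl5 probe set 1437211_x_at (9.901, the next 9.701, 0.873), and replicate 3 was low in Scd2 probe set 1415823_at (8.365, the next 8.699, 0.848) and high in Thrsp probe set 1422973_a_at (9.786, the next 9.617, 0.862). At 42 days replicate 2 was low in Thrsp probe set 1444166_at (8.623, the next 8.792, 0.885). None of these probe sets passed the test against chow.

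By the test of 42 against 5 days itself, the change against chow differed between the times in Scd2 probe set 1415824_at (log2 difference 0.586), Acaca probe set 1427595_at (0.256) and Mlxipl probe set 1419185_a_at (-0.349).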

How the results depend on the processing

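Across 1698 values of single probe sets under the alternatives, 0 changed direction after being called, 125 were no longer past the test, 17 came to pass, and 1556 stayed on their side. The 1698 include comparisons not called in the main fit, which cannot lose a call, so the 125 are no measure of how stable the calls were. At 5 days the calls were lost in between 4 of 25 alternatives (Fasn) and 15 of 25 (Scd1 1415964_at). At 42 days the falls of Fasn, Acaca 1434185_at, Acly 1439459_x_at and Elovl6 1417403_at and the rise of Scd2 1415824_at passed in every alternative run. Of the 24 probe sets, 9 were called at 5 days; the count was 5 with a trended robust prior, 0 with the adipocyte or the Ucp1 and Cidea covariate, 1 without chow replicates 3 and 4, and 0 with only the 8 arrays compared (12 at an unadjusted p under 0.05, limma; 7 calls over all probe sets). At 42 days 11 were called, with 7 of 10 by the brightest probe set a gene, 5 with the adipocyte covariate, 6 with Ucp1 and Cidea and 6 without chow replicates 3 and 4. Between the HFD times 3 were, with 1 without the dimmest probe sets, 1 of 10 by the brightest and 5 without chow replicates 3 and 4. For any difference 11 were, with 7 of 10 by the brightest, 7 with either covariate and 7 without chow replicates 3 and 4. With single arrays left out the counts ran from 0 to 10 at 5 days, 7 to 12 at 42 days, 0 to 4 between the times and 10 to 13 for any difference.

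Pathway genes called at 5 days were 3, with 6 without the dimmest, 1 with the robust prior, and 0 with either covariate, without chow replicates 3 and 4 or with 8 arrays (8, 7, 12 and 11 at an unadjusted p under 0.05, limma). At 42 days they were 11, with 3 under either covariate, 2 without chow replicates 3 and 4 and 7 with 8 arrays. Between the times they were 3, with 0 after quantile normalization (6 at an unadjusted p under 0.05), 8 after median centring, 5 by the brightest, 5 with the adipocyte covariate, 7 with Ucp1 and Cidea, 5 without chow replicates 3 and 4 and 5 with 8 arrays. Single arrays gave 0 to 5, 5 to 15 and 0 to 5.

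Median centring moved the share of higher calls over all probe sets to 85.3% at 5 days (47.5% as deposited, 60.6% after quantile normalization) and to 9.69% between the times (39.9% as deposited); the median of all log2 fold changes at 5 days was 0.04 after it and -0.02 before. With the replicate number as a block 10 of 24 were called at 5 days, 11 at 42 days, 4 between the times and 15 for any difference; own-number arrays were the closest match for 4 of 12 arrays. The causes of these shifts were not tested.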
